A study of Mus musculus with 32 samples.

Results

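Expression of 10 genes of growth factor receptor signalling was followed across 32 primary mouse melanomas. The genes were chosen by name, as those whose Ensembl identifiers map to Axl, Tyro3, Gas6, Egfr, Areg, Ereg, Nrg1, Pdgfra, Pdgfrb and Fgfr1, and they are 10 of the 50600 genes in the tables. All 10 passed the filter on low counts, which kept 17717 genes. RNA was measured by sequencing polyadenylated transcripts of bulk tumour tissue, and levels are given as TPM, which corrects for the length of each gene and the depth of each library.

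The study asked how loss of E-cadherin, the adhesion protein encoded by Cdh1, changes melanoma in each sex. The labels gave 4 groups of 8 tumours, named here Ecad male, Ecad female, ΔEcad male and ΔEcad female. Ecad tumours came from mice labelled Tyr::NrasQ61K;Cdkn2a-/+;°/°;Cdh1F/F, and ΔEcad tumours from mice labelled Tyr::NrasQ61K;Cdkn2a-/+;Tyr::NRAS/°;Cdh1F/F. The methods of the study name Tyr::CreA as the transgene that deletes Cdh1, where the ΔEcad label writes Tyr::NRAS. All groups, controls included, thus carried the NRAS oncogene driven by the tyrosinase promoter, lacked 1 copy of Cdkn2a and had floxed Cdh1, on a C57BL/6J background. Cre is driven by the tyrosinase promoter of melanocytes, so other cells of a ΔEcad tumour keep Cdh1. Ages are not given, and the labels do not say which tumours shared a mouse, so p-values measure the spread between these tumours.

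Total counts ranged from 24036333 to 63923086 per tumour. A count of 0 allows up to 3 counts, and this floor covers counting error only. Cdh1, the targeted gene, lay between 0.17 and 143 TPM in the libraries labelled ΔEcad female and between 2.16 and 151 TPM in Ecad females, so its RNA did not separate the female genotypes. In males it lay between 0.79 and 65.2 TPM in ΔEcad and between 25 and 282 TPM in Ecad tumours. The library labelled ΔEcad male 2 had 0 counts over Y-linked genes and 6.41 TPM of Xist, and ΔEcad female 1 had 92 counts over Y-linked genes.

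Melanocytic markers (Mitf, Tyr, Tyrp1, Dct, Pmel, Mlana, Slc45a2 and Sox10) checked the labelled tumour type. Their summed level was 31.8 TPM in ΔEcad male 7 against a median of 28497 TPM, and at least 5885 TPM in every other tumour. In ΔEcad female 3 the same sum was 9599 TPM, but the macrophage markers Adgre1, C1qa, C1qb and C1qc were all at 0 counts. These tumours stand apart for several of the genes below, and several results that rest on them are given with and without them.

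The receptors encoded by these genes are tyrosine kinases of the cell surface, which pair when a ligand binds and signal through RAS, the pathway that the NRAS oncogene of these tumours already drives. In melanoma, high AXL and EGFR with low MITF is known as a dedifferentiated state, linked to resistance to inhibitors of the BRAF and MEK kinases. The same receptors are common on cells around a tumour: PDGF receptors mark fibroblasts and the mural cells of vessels, EGFR and its ligands are abundant in epidermis, and GAS6 is made by many stromal cells. In bulk tumours, fewer cells of a type and less RNA per cell cannot be told apart.

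To show the regulatory sequence of genes that led together in the same tumours (Axl and Pdgfra) and of a gene that followed keratinocyte markers (Areg), promoters were taken from RefSeq on GRCm38.p6. They run from 250 bases before to 50 bases after the annotated start, 5′ to 3′ on the strand of the gene. Capitals mark matches on either strand to an AP-1 element (TGAGTCA), a cyclic AMP response element (TGACGTCA), a TEAD element (GGAATG), E-boxes (CACGTG or CATGTG), a GC box (GGGCGG) or a TATA box (TATAAA).
Axl (chr7:25788684-25788983, minus strand): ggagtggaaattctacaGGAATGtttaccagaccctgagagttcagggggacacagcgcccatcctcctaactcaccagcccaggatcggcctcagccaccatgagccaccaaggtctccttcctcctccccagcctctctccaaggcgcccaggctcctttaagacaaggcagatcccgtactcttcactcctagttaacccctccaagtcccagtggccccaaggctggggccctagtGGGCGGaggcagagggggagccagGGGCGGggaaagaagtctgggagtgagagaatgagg
Areg (chr5:91139349-91139648, plus strand): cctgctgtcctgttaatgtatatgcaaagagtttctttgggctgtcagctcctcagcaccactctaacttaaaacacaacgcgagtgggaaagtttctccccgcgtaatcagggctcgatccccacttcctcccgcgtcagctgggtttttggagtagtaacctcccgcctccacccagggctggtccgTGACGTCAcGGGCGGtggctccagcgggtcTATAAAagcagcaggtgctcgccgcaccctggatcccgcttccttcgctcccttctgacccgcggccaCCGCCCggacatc
Pdgfra (chr5:75152001-75152300, plus strand): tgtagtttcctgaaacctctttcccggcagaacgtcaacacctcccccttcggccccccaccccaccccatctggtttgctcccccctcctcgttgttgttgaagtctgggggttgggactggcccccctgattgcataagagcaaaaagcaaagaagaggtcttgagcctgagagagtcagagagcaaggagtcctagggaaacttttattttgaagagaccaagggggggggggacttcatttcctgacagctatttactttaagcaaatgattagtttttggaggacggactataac

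The Axl promoter held a TEAD element 233 bases before the start, present in 14.7% of 32851 mouse promoters of that length, and 2 GC boxes. At least 1 GC box was present in 35.7% of promoters. The Areg promoter held a cyclic AMP response element 61 bases before the start, which 1.79% of promoters hold, a TATA box 31 bases before the start, which 13.6% hold, and 2 GC boxes. None of the letters searched were found in the Pdgfra promoter. An AP-1 element was in 5.2% of all promoters and in none of the 6 promoters of these genes in the table (Axl, Gas6, Tyro3, Egfr, Areg and Pdgfra). The E-boxes, in 7.15% and 14.2% of all promoters, were in none of the 6 either. Gas6 and Tyro3 promoters held 4 and 6 GC boxes and the Egfr promoter held 1. Promoters of Ereg, Nrg1, Pdgfrb and Fgfr1 are not shown. Such matches describe letters and were not tested as binding sites.

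Axl, Tyro3 and Gas6 are the TAM receptors and their ligand, a vitamin K-dependent protein that binds dying cells and bridges them to the receptor. Gas6 was the most abundant of the 10 genes, with a median of 241 TPM over 32 tumours, above Axl at 50.5 TPM and Tyro3 at 26.5 TPM. Axl (ENSMUSG00000002602, chromosome 7, 25757273 to 25788705, GRCm38) had a lowest, median and highest level of 21.3, 66.2 and 88.5 TPM in Ecad males and of 4.82, 35.5 and 119 TPM in Ecad females. In ΔEcad males these were 5.14, 44.2 and 394 TPM, and in ΔEcad females 6.64, 50.5 and 245 TPM. The groups overlapped, and ΔEcad male 7 and ΔEcad female 3 had the 2 highest levels of the series. Without its highest tumour, the mean Axl level was 39.1 TPM in ΔEcad males and 48.0 TPM in ΔEcad females. Ecad males were at 60.4 ± 23.3 TPM (SD, n = 8), and at 56.4 TPM without their own highest tumour.

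Gas6 (ENSMUSG00000031451, chromosome 8, 13465374 to 13494490) ranged from 28.0 to 540.1 TPM in Ecad males, 21.1 to 539 TPM in Ecad females, 46.7 to 484 TPM in ΔEcad males and 147 to 494 TPM in ΔEcad females, with medians of 277, 137, 238 and 352 TPM. All 4 ranges overlapped. Gas6 overlaps Tmem255b on the opposite strand, at a median of 33 counts, and the counting is not stated to use strand. Tyro3 (ENSMUSG00000027298, chromosome 2, 119797733 to 119818104) had medians between 25.2 and 29.5 TPM in the 4 groups, and ΔEcad male 5 stood highest at 180.1 TPM, followed by ΔEcad female 8 at 92.4 TPM. Ligand and receptor did not lead in the same tumours: Ecad male 5 and Ecad female 7, with the highest Gas6, had 66.7 and 61.4 TPM of Axl, and ΔEcad male 7, with the highest Axl, had 238 TPM of Gas6. The other receptor of the family, Mertk, had a median of 94.3 TPM and its ligand Pros1, or protein S, 126 TPM.

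**Figure D1:**
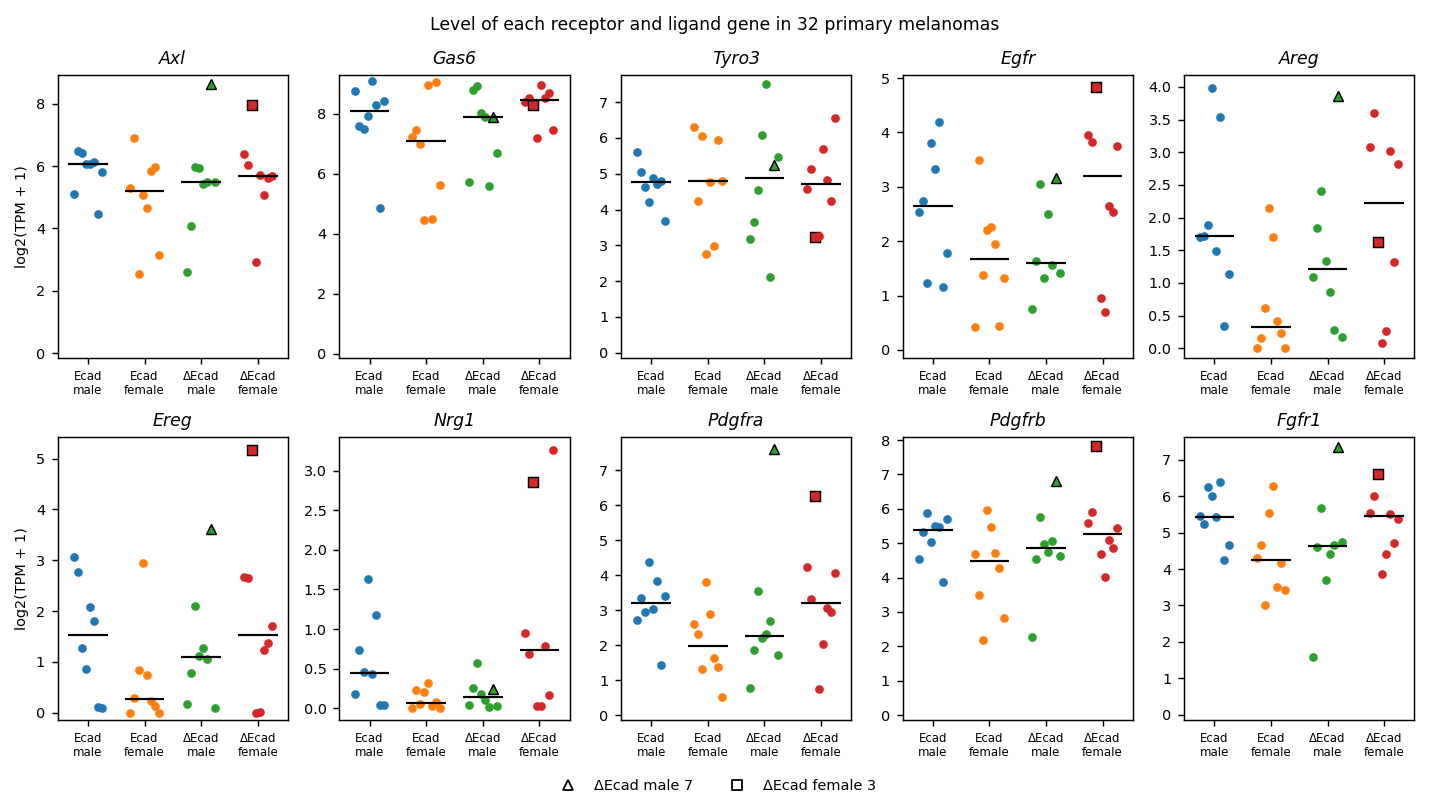
Level of each of the 10 genes in every tumour as log2(TPM + 1), with 8 tumours for each group and a line at the group median. The triangle is ΔEcad male 7 and the square ΔEcad female 3, which are the 2 highest points for Axl, Ereg, Pdgfra, Pdgfrb and Fgfr1.

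Egfr encodes the receptor of epidermal growth factor, and amphiregulin (Areg) and epiregulin (Ereg) are 2 of its ligands. Egfr (ENSMUSG00000020122, chromosome 11, 16752203 to 16918158) was low, with a median of 3.71 TPM. Its lowest, median and highest levels were 1.23, 5.27 and 17.2 TPM in Ecad males and 0.34, 2.23 and 10.3 TPM in Ecad females. In ΔEcad males they were 0.69, 2.03 and 7.97 TPM, and in ΔEcad females 0.62, 8.81 and 27.7 TPM. ΔEcad female 3 was the highest, and all 4 ranges overlapped. Egfros, an antisense transcript of Egfr, was at a median of 1 count.

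Areg (ENSMUSG00000029378, chromosome 5, 91139599 to 91148432) averaged 4.51 ± 5.28 TPM in Ecad males and 3.02 ± 4.44 TPM in ΔEcad males (SD, n = 8). Among females it averaged 0.859 ± 1.28 TPM in the Ecad group and 4.44 ± 4.04 TPM in the ΔEcad group (SD, n = 8). Its highest levels were 14.9 TPM in Ecad male 4, 13.5 TPM in ΔEcad male 7 and 11.1 TPM in ΔEcad female 2, and 4 of 8 Ecad females held 3 counts or fewer. Ereg (ENSMUSG00000029377, chromosome 5, 91074622 to 91093646) reached 35.02 TPM in ΔEcad female 3 and 11.2 TPM in ΔEcad male 7, against a median of 1.12 TPM. Its group medians were 1.94 TPM in Ecad males, 0.20 TPM in Ecad females, 1.12 TPM in ΔEcad males and 1.92 TPM in ΔEcad females, and without ΔEcad female 3 the mean of the last group fell from 6.35 ± 11.8 to 2.26 TPM. Areg and Ereg lie near each other on chromosome 5 and ΔEcad male 7 was second of the 32 tumours for both, while ΔEcad female 3, the highest for Ereg, held 2.08 TPM of Areg.

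Nrg1 (ENSMUSG00000062991, chromosome 8, 31814551 to 32884029) encodes neuregulin 1, a ligand of ERBB3 and ERBB4. It was the lowest of the 10 genes, at 0.03, 0.365 and 2.1 TPM (lowest, median and highest) in Ecad males and 0, 0.05 and 0.25 TPM in Ecad females. In ΔEcad males these levels were 0.01, 0.105 and 0.49 TPM, and in ΔEcad females 0.02, 0.665 and 8.6 TPM. ΔEcad female 8 at 8.6 TPM and ΔEcad female 3 at 6.25 TPM stood above every other tumour, of which the next was Ecad male 4 at 2.1 TPM. Its receptor Erbb3 was high in melanomas, with a median of 134 TPM, and ΔEcad male 7 was the exception at 0.83 TPM, against 24.6 TPM or more in the other tumours.

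Pdgfra and Pdgfrb encode the receptors of platelet-derived growth factors, and Fgfr1 a receptor of fibroblast growth factors. Pdgfra (ENSMUSG00000029231, chromosome 5, 75152292 to 75198215) lay between 0.42 and 19.8 TPM in 30 tumours and was at 76.2 TPM in ΔEcad female 3 and 194 TPM in ΔEcad male 7. Without these tumours the group means were 8.62 TPM in ΔEcad females and 4.21 TPM in ΔEcad males, beside 9.12 ± 5.44 TPM in Ecad males and 4.27 ± 4.05 TPM in Ecad females (SD, n = 8). Without their own highest tumours, Ecad males and females were at 7.60 and 3.03 TPM. Pdgfrb (ENSMUSG00000024620, chromosome 18, 61045150 to 61085061) reversed that order, at 224 TPM in ΔEcad female 3 and 111 TPM in ΔEcad male 7, with the next tumour at 61.3 TPM. Its medians were 41.0 and 21.4 TPM in Ecad males and females, and 28.1 and 37.9 TPM in ΔEcad males and females. Both PDGF receptors thus stood apart in the same pair of tumours. Fgfr1 (ENSMUSG00000031565, chromosome 8, 25513654 to 25575718) was at 161 TPM in ΔEcad male 7 and 95.8 TPM in ΔEcad female 3, with the next tumour at 82.2 TPM. Its medians were 42.3 and 17.8 TPM in Ecad males and females, and 23.6 and 42.6 TPM in ΔEcad males and females. In the other direction, Ecad female 8 was among the 3 lowest tumours for 5 of the 10 genes, and Ecad female 1, ΔEcad male 1 and ΔEcad female 4 for 4 each.

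In the order of group means, ΔEcad females were highest for Gas6, Egfr, Ereg, Nrg1 and Pdgfrb, ΔEcad males for Axl, Tyro3 and Pdgfra, and Ecad males for Areg and Fgfr1. Ecad females were lowest for 9 of the 10 genes, Tyro3 being the exception. No neighbours in any of these orders differed by more than the larger SD of the pair, and no ranges were apart. Several of the means rested on 1 tumour. Without ΔEcad male 7, the ΔEcad male mean fell from 83.4 to 39.1 TPM for Axl and from 27.9 to 4.21 TPM for Pdgfra. The latter was just under the 4.27 TPM of all 8 Ecad females, which were at 3.03 TPM without their own highest tumour. Tyro3 fell from 46.5 to 27.4 TPM without ΔEcad male 5. Without ΔEcad female 3, the ΔEcad female mean was 2.26 TPM for Ereg and 35.7 TPM for Pdgfrb. Ecad males were at 2.66 and 37.8 TPM with all tumours, and at 1.99 and 34.9 TPM without their own highest tumour. Groups that do not overlap were found for 0.0395% of all genes between the genotypes in females, 0.0508% in males, 0.124% between the sexes of Ecad tumours and 0.00564% between those of ΔEcad tumours.

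ΔEcad male 7 and ΔEcad female 3 shared high receptor RNA but differed in the other cell markers. In ΔEcad male 7 none of the 8 fibroblast markers was under the median of the tumours, with Dcn at 404 TPM and Lum at 457 TPM, the highest of the series, and none of the 8 macrophage markers was under the median. In ΔEcad female 3 the fibroblast collagens Col1a1, Col1a2 and Col3a1 were the highest of the series, at 4361, 1909 and 2817 TPM, while Dcn at 2.24 TPM and Lum at 0.11 TPM were among the other 4 fibroblast markers under the median. Acta2, the actin of smooth muscle and activated fibroblasts, was at 3978 TPM there against a median of 76.4 TPM, while the mural marker Rgs5 was at 2.24 TPM. Endothelial and macrophage sums were the lowest of the 32 tumours in ΔEcad female 3, at 8.67 and 24.2 TPM. In both tumours 7 of 10 keratinocyte markers held 3 counts or fewer, with Krt5 and Krt1 at 0, so the high Ereg and Axl there came with keratinocyte markers near 0. The melanocytic Dct was at 4.98 TPM in ΔEcad male 7 and 1917 TPM in ΔEcad female 3.

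**Figure D2:**
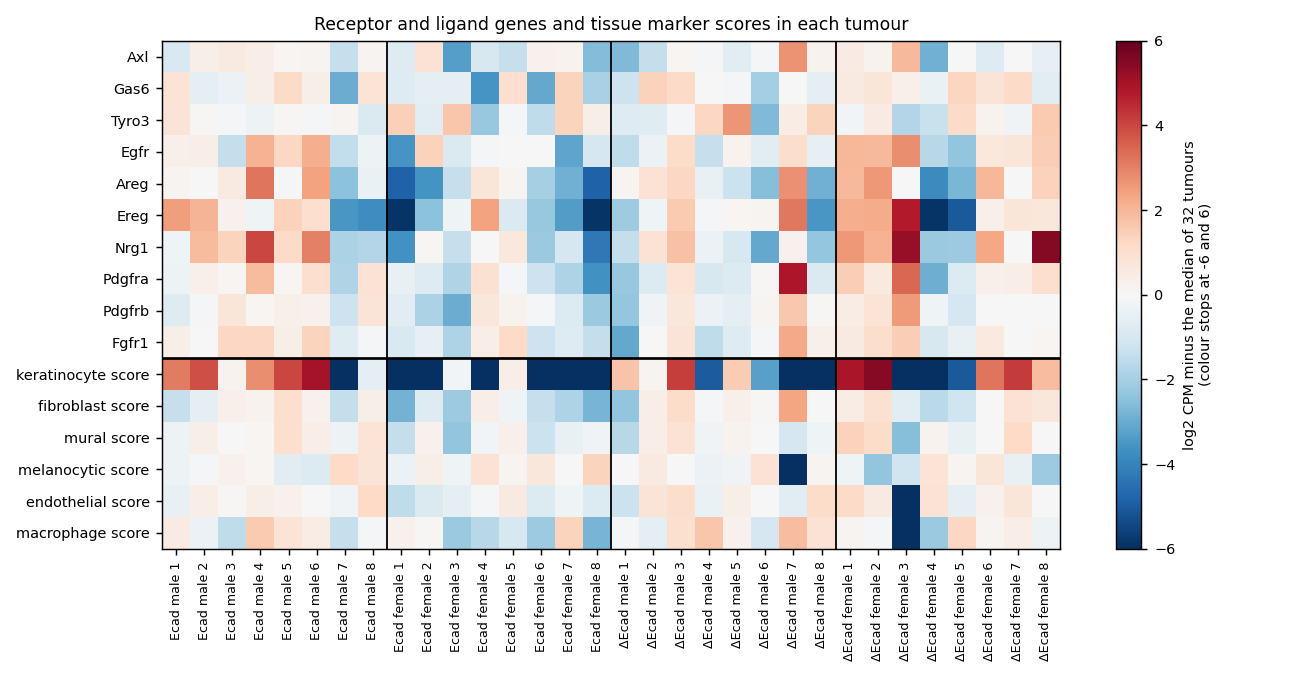
Log2 CPM of each gene, and marker scores (mean log2 CPM of a marker list), as the difference from the median of 32 tumours. Columns are tumours by group. ΔEcad male 7 is red for the fibroblast and macrophage scores and dark blue for the melanocytic score, while in ΔEcad female 3 the endothelial and macrophage scores are dark blue.

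Genotype was compared within each sex with edgeR's quasi-likelihood test, and a gene was called at an adjusted p under 0.05 over all 17717 genes and an absolute log2 fold change over 1. In females, 1 of the 10 genes was called, against 1.2% of all genes tested. Nrg1 rose in ΔEcad females, by 4.40 on the log2 scale (SE 1.13, edgeR adjusted p = 0.0494), and the groups overlapped. The next were Egfr at 1.61 (SE 0.65, adjusted p = 0.198), Pdgfrb at 1.22 (SE 0.50, adjusted p = 0.203), Areg at 2.33 (SE 1.02, adjusted p = 0.243) and Pdgfra at 1.92 (SE 0.86, adjusted p = 0.259). These 5 genes had an unadjusted p under 0.05, as did 15.3% of all genes. Without ΔEcad female 3, 2 of the 10 did, as did 2962 of 17935 genes tested. With keratinocyte and fibroblast scores as covariates, 3 of the 10 did, as did 1003 of 17717 genes. The median log2 fold change of the 10 genes was 1.41 against -0.02 over all genes, and 9 of 10 were positive, Tyro3 being at -0.27 (SE 0.56). DESeq2 called Nrg1 and Pdgfra (1.95, adjusted p = 0.0194), whereas limma voom (Nrg1 at 3.32, adjusted p = 0.178) and edgeR on the female tumours alone (Nrg1 at 4.40, adjusted p = 0.186) called none of the 10. Without ΔEcad female 3 the edgeR values were 1.22 for Egfr, 0.58 for Pdgfrb, 1.01 for Pdgfra and 1.08 for Ereg, which was at 2.48 (SE 1.25) with it. Axl moved from 0.69 (SE 0.59) to 0.17 and Fgfr1 from 0.71 (SE 0.51) to 0.49 without that tumour. Gas6 was at 0.73 in all tumours (SE 0.57, edgeR adjusted p = 0.611).

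The Nrg1 call was close to the threshold. Leaving out 1 tumour at a time kept it in 12 of 32 cases. It was lost without any of Ecad males 1, 2, 4 and 5, Ecad females 1, 2, 3, 4, 6, 7 and 8, ΔEcad males 1, 2 and 5, or ΔEcad females 1, 2, 3, 6, 7 and 8, with adjusted p from 0.0503 to 0.104 in those cases and log2 fold changes from 3.70 to 4.58. Without both ΔEcad male 7 and ΔEcad female 3 it was 3.92 (SE 1.13, adjusted p = 0.049).

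Keratinocyte content moved with these values. The summed level of 10 keratinocyte markers was 5.31 to 1948 TPM in Ecad females, with a median of 8.19 TPM, and 9.53 to 39975 TPM in ΔEcad females, with a median of 6624 TPM. The sum of 8 fibroblast markers had a median of 353 TPM in the former and 1375 TPM in the latter. With keratinocyte and fibroblast scores in the model, Nrg1 was at 3.57 (SE 1.05) and its edgeR adjusted p 0.335. Among the 14 tumours with the lowest keratinocyte scores, the median Nrg1 level was 0.025 TPM. The highest there was the 6.25 TPM of ΔEcad female 3, where Krt5, Krt14, Krt1 and Lor were at 0. The next was ΔEcad male 7 at 0.19 TPM. Beyond the fit with scores, the part of keratinocyte content in the Nrg1 difference was not tested.

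In males, none of the 10 genes was called, nor was any gene (0%), although 10.2% of all genes had an unadjusted p under 0.05. None of the 10 did. The DESeq2 test called 21 genes, and none of the 10. The values nearest to a change were Nrg1 at -2.03 (SE 1.02, edgeR adjusted p = 0.497), Pdgfra at 1.48 (SE 0.85, adjusted p = 0.538), Tyro3 at 0.86 (SE 0.57, adjusted p = 0.588) and Egfr at -0.88 (SE 0.64, adjusted p = 0.63). The Pdgfra value rested on ΔEcad male 7, without which it was -0.98 (SE 0.64). Axl likewise moved from 0.47 (SE 0.59) to -0.44 (SE 0.52) and Fgfr1 from -0.20 (SE 0.50) to -0.84 (SE 0.47). Without ΔEcad male 2, whose Y-linked genes were at 0, the values were 1.65 for Pdgfra, 0.61 for Axl and -2.23 for Nrg1, with no gene of the 10 called.

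**Figure D3:**
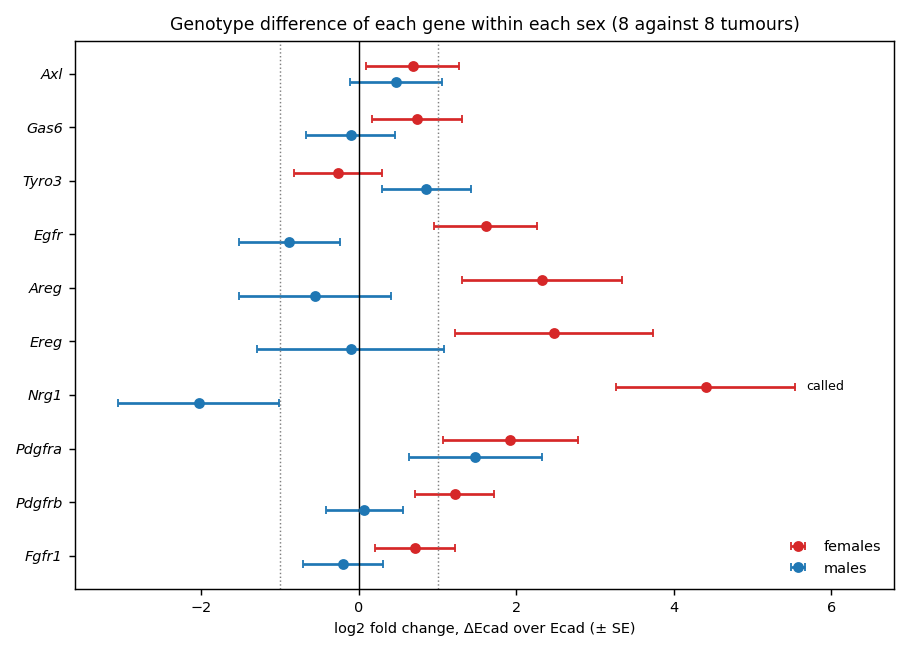
Log2 fold change of ΔEcad over Ecad for each gene, females in red and males in blue, with bars of 1 SE. Dotted lines are at -1 and 1. Nrg1 in females, at 4.40, is the value called.

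Females and males were also compared within each genotype. These comparisons share their groups with those above, so values are given side by side. Among Ecad tumours, where 0.0508% of all genes were called, none of the 10 was. Nrg1 was at -2.88 (SE 1.06, edgeR adjusted p = 0.169) and Areg at -2.46 (SE 1.02, adjusted p = 0.222), where a negative value is lower in females. Both had an unadjusted p under 0.05, as did 16% of all genes. The keratinocyte sum was 8.7 to 24558 TPM in Ecad males. The keratinocyte score was 3.92 or more in 7 of 8 Ecad males and 2 of 8 Ecad females. Among ΔEcad tumours, where 0.0395% of all genes were called, none of the 10 was, and Nrg1 was at 3.56 (SE 1.08, edgeR adjusted p = 0.484). It was the one gene of the 10 with an unadjusted p under 0.05, as had 8.81% of all genes. The keratinocyte sum was 6.92 to 15854 TPM in ΔEcad males, with a median of 500.1 TPM.

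The interaction of genotype and sex, the fold change in females less that in males, was called for none of the 10 genes and for no gene (0%), while 17.7% of all genes had an unadjusted p under 0.05. Of the 10, Nrg1 at 6.44 (SE 1.52, edgeR adjusted p = 0.0526), Egfr at 2.49 (SE 0.91, adjusted p = 0.136) and Areg at 2.89 (SE 1.39, adjusted p = 0.274) did. DESeq2 called 1225 genes in this comparison, 3 of the 10 among them (Nrg1, Pdgfra and Egfr). By edgeR the Pdgfra value was 0.44, and it moved to 2.90 without ΔEcad male 7 and to -0.47 without ΔEcad female 3. The DESeq2 value of Pdgfra in all tumours lay close to that 2.90. The Nrg1 interaction thus lay on either side of the threshold by tool and, within edgeR, by the tumours included. It was called by edgeR without any of Ecad males 3, 7 and 8, Ecad female 5, ΔEcad male 3 or ΔEcad females 3, 4, 5 and 8, with adjusted p from 0.0156 to 0.0456. The adjusted p was 0.0345 without ΔEcad female 3, 0.0419 without that tumour and ΔEcad male 7, and 0.0785 without ΔEcad male 2.

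Ligands, co-receptors and regulators of these receptors, with genes that mark the dedifferentiated or the melanocytic state, gave 41 further genes. Nrg3 and Fgf5 were too low and 39 were tested. None was called in any of the 5 comparisons. In females, 15 of the 39 had an unadjusted p under 0.05, against 15.3% of all genes, 12 with a positive and 3 with a negative value. By family these were 6 of 9 tested FGF genes (all positive), 5 of 12 ERBB genes (4 positive and 1 negative), 1 of 4 PDGF ligands (positive) and neither of the 2 TAM genes. The rest were 3 of 12 genes of the dedifferentiated or melanocytic state: Sox9 at 1.87 (SE 0.72), Loxl2 at -1.31 (SE 0.62) and Mitf at -1.26 (SE 0.51). Low Mitf is itself part of the dedifferentiated state. Of the 15, those with the smallest p were Fgfr3 at 4.62 (SE 1.27, edgeR adjusted p = 0.0531), Fgf10 at 4.13 (SE 1.18, adjusted p = 0.0595), Erbb2 at 1.34 (SE 0.38, adjusted p = 0.0595), Fgfr2 at 4.26 (SE 1.30, adjusted p = 0.0726) and Fgf22 at 3.84 (SE 1.21, adjusted p = 0.0842). FGFR2 and FGFR3 are FGF receptors prominent in epidermis and ERBB2 is the co-receptor of the other ERBB kinases. Fgfr3 and Fgfr2 were both highest in Ecad male 6, ΔEcad female 2 and ΔEcad female 1. These tumours had the highest keratinocyte scores of the series, at 9.50, 9.98 and 9.38. Beyond the fit with scores, the part of keratinocyte content in the values of these families was not tested. Fgf10 reached 14.8 TPM in ΔEcad female 3 against 1.53 TPM in the next tumour.

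In males, 3 of the 39 were under that p (1 positive and 2 negative), against 10.2% of all genes. They were Fgf1 at 1.60 (SE 0.60, edgeR adjusted p = 0.427), Epgn at -2.36 (SE 1.09, adjusted p = 0.476) and Erbb2 at -0.80 (SE 0.38, adjusted p = 0.48). Between the sexes of Ecad tumours, 9 were (8 negative and 1 positive), against 16% of all genes, led by Fgfr3 at -4.65 (SE 1.27, adjusted p = 0.0985). Between those of ΔEcad tumours, 7 were (4 positive and 3 negative), against 8.81% of all genes, led by Erbb2 at 1.02 (SE 0.38, adjusted p = 0.50). In the interaction, 14 were (11 positive and 3 negative), against 17.7% of all genes, led by Fgfr3 at 6.91 (SE 1.70, adjusted p = 0.0526) and Erbb2 at 2.14 (SE 0.54, adjusted p = 0.0526).

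The direct partners of the 10 genes showed no called difference either. In ΔEcad against Ecad females, Mertk was at 0.06 (SE 0.65), Pros1 at -0.06 (SE 0.49), Erbb3 at -0.10 (SE 0.56), Pdgfa at -0.40 (SE 0.53), Pdgfb at 0.87 (SE 0.58) and Fgf2 at 0.82 (SE 0.83). Mitf, the transcription factor of melanocyte identity, was at -1.26 (SE 0.51, edgeR adjusted p = 0.196) in females and 0.32 (SE 0.50, adjusted p = 0.837) in males.

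Ligands and receptors were then compared across the 32 tumours, as correlations of log2 CPM with permutation tests (100000 permutations), adjusted over 9 pairs. The tumours share libraries and cell mixtures, so these are relations of bulk levels. Areg followed Egfr (r = 0.685, rho = 0.650, permutation p = 1e-05, adjusted p = 2.2e-05), and r was 0.635 once the 2 tumours with the most extreme Areg were left out. Ereg followed Egfr too (r = 0.730, rho = 0.691, permutation p = 1e-05, adjusted p = 2.2e-05), with r = 0.692 without its 2 farthest tumours. These ligands followed each other (r = 0.775, rho = 0.705), as did Pdgfra and Pdgfrb (r = 0.794, rho = 0.808), with r of 0.700 and 0.758 without the 2 farthest tumours. All 4 pairs were at the smallest Pearson p the permutations can give, 1e-05. Within the 4 groups, r lay between 0.417 and 0.810 for Areg with Egfr, between 0.466 and 0.976 for Ereg with Egfr, between 0.420 and 0.934 for Areg with Ereg and between 0.694 and 0.859 for the PDGF receptors.

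The other 5 pairs did not pass. Gas6 followed neither Axl (r = 0.251, rho = 0.177, permutation p = 0.166, adjusted p = 0.213) nor Tyro3 (r = 0.340, rho = 0.108, adjusted permutation p = 0.104). Axl and Tyro3 were at r = -0.09 (rho = -0.14, adjusted permutation p = 0.637) and Nrg1 and Erbb3 at r = -0.16 (rho = -0.39, adjusted permutation p = 0.426). Axl and Mitf were at r = -0.31 (rho = -0.36, permutation p = 0.0793, adjusted p = 0.119), with r of -0.81 in Ecad males and 0.56 in Ecad females. Within ΔEcad males and within ΔEcad females r was negative too. ΔEcad male 7 had both the highest Axl and the lowest Mitf (12.4 TPM) of the 32 tumours.

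**Figure D4:**
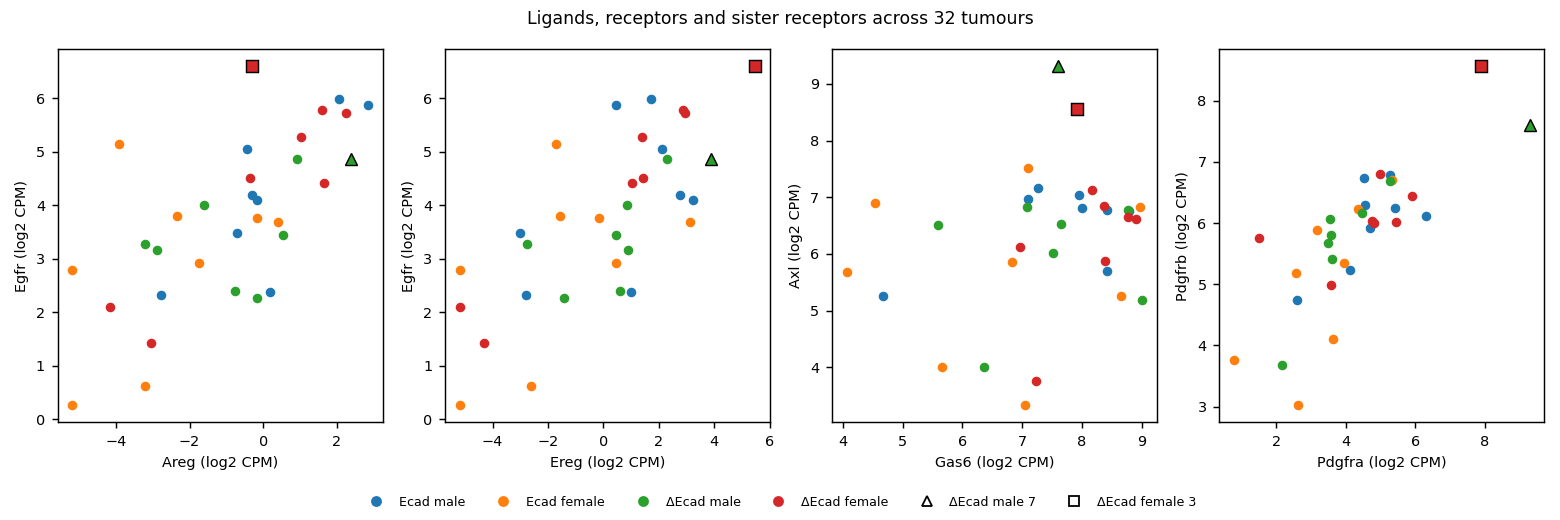
Log2 CPM of 4 pairs of genes in 32 tumours, coloured by group. Areg and Ereg rise with Egfr and Pdgfra with Pdgfrb, while Axl does not follow Gas6 (r = 0.251).

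Skin and fibroblast content were set beside each gene as marker scores, in 30 relations adjusted together. With the fibroblast score, 8 of 10 genes passed, at r from 0.552 for Nrg1 to 0.726 for Pdgfra, with Pdgfrb at 0.700, Fgfr1 at 0.724, Areg at 0.717 and Axl at 0.606. The adjusted permutation p for r lay from 0.00015 to 0.00341, and r without the 2 farthest tumours from 0.422 to 0.724. Gas6 (r = 0.334, rho = 0.383, adjusted permutation p = 0.0926) and Tyro3 (r = -0.10, rho = -0.13, adjusted permutation p = 0.609) did not, although Gas6 passed by rho (adjusted permutation p = 0.0427). Within ΔEcad males Pdgfrb and the fibroblast score were at r = 0.962, and within ΔEcad females, which hold ΔEcad female 3, at 0.138.

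With the keratinocyte score, 5 genes passed: Areg (r = 0.677, rho = 0.640), Nrg1 (r = 0.542, rho = 0.650), Gas6 (r = 0.528, rho = 0.500), Ereg (r = 0.504, rho = 0.523) and Egfr (r = 0.503, rho = 0.585). Their adjusted permutation p for r lay from 0.00018 to 0.00732 and their r without the 2 farthest tumours from 0.488 to 0.707. Within the 4 groups, r for Areg lay between 0.216 and 0.823. Pdgfra and Fgfr1 passed by rho alone (0.463 and 0.410). Axl was at r = 0.009 (rho = 0.164, adjusted permutation p = 0.960) and Tyro3 at r = 0.156 (rho = 0.103, adjusted permutation p = 0.436). The score had a gap between 1.23 and 3.92 with 14 tumours under it and 18 over it. Each side was also taken alone, a choice made after the values were plotted and given as a description. Over the gap r was 0.765 for Egfr, 0.746 for Ereg and 0.545 for Areg. Under it r was -0.079, 0.123 and 0.025 for the same genes. Of 20 such relations adjusted together, 2 passed, those of Egfr and Ereg over the gap. Areg over the gap did not (adjusted permutation p = 0.119). Areg was at a median of 2.44 TPM over the gap and 0.21 TPM under it, and Nrg1 at 0.365 and 0.025 TPM.

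With the melanocytic score, 5 genes passed, all in the negative direction: Pdgfra (r = -0.66, rho = -0.46), Axl (r = -0.52, rho = -0.35), Fgfr1 (r = -0.46, rho = -0.33), Ereg (r = -0.43, rho = -0.57) and Areg (r = -0.43, rho = -0.40). By rho, Axl and Fgfr1 did not pass (adjusted permutation p = 0.0632 and 0.0826), while Tyro3, Egfr and Nrg1 did. Without the 2 farthest tumours, ΔEcad male 7 and ΔEcad female 2, r was -0.33 for Axl and -0.23 for Fgfr1, so these relations rest on those tumours. Without ΔEcad male 7, Axl was at r = -0.34 (adjusted permutation p = 0.0793) and Fgfr1 at -0.30 (adjusted permutation p = 0.123) and neither passed, whereas Gas6 (r = -0.40), Egfr (r = -0.46) and Nrg1 (r = -0.61) then did.

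**Figure D5:**
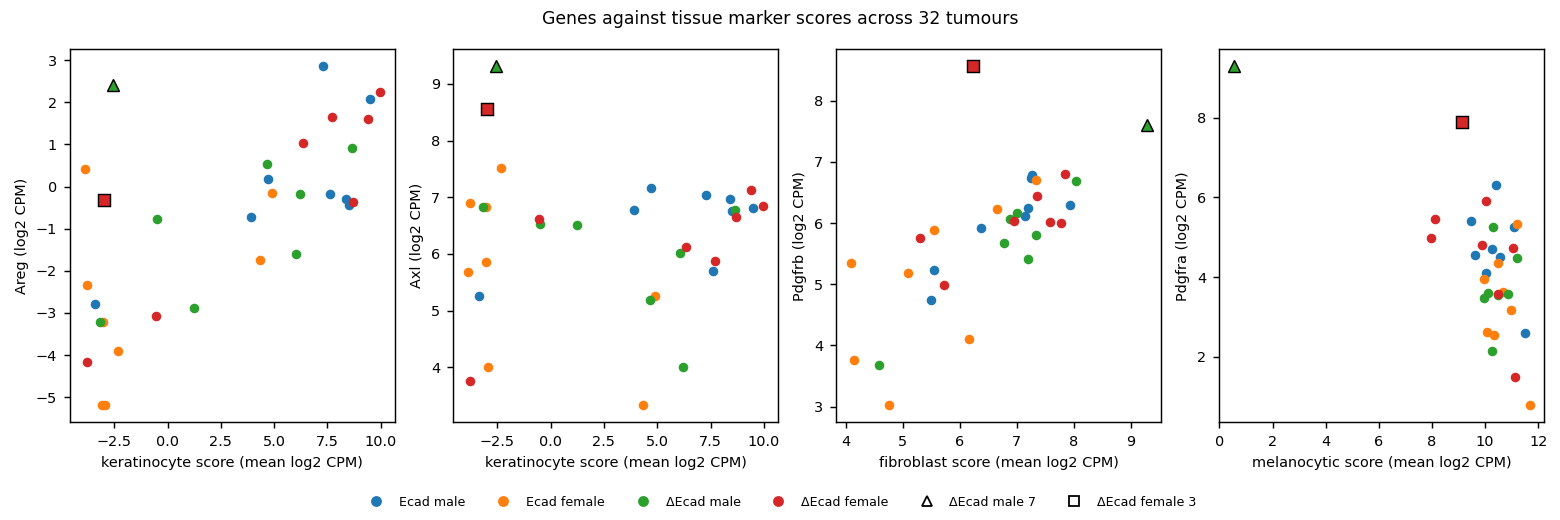
Log2 CPM of Areg, Axl, Pdgfrb and Pdgfra against a marker score, in 32 tumours coloured by group. Areg is higher where keratinocyte markers are present, Axl is not (r = 0.009), and ΔEcad male 7 lies alone at the left of the melanocytic panel.

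The tested genes whose levels were most like each gene across the 32 tumours were named by Spearman's rho, as a description. For Axl they were Arhgap24 (0.772), Bdnf (0.734) and Fgf2 (0.727), the last a growth factor that binds FGFR1. For Gas6 they were Acp5 (0.790), Gm13652 (0.786) and Acoxl (0.746), Acp5 being an acid phosphatase of osteoclasts and macrophages. For Tyro3 they were Stard9 (0.887), 4930402H24Rik (0.851) and Gm37121 (0.823). Tpbg, which encodes the trophoblast glycoprotein 5T4, was among the 3 for Areg (0.836), Ereg (0.849) and Nrg1 (0.864), and Prrg4 for Egfr (0.879) and Nrg1 (0.837). The closest to Egfr was Cdon (0.894), to Areg Slco1a5 (0.859), and to Fgfr1 Gas1 (0.908), Rnf207 (0.865) and Tnfaip6 (0.862). For Pdgfrb they were Gpr153 (0.939) and the collagens Col1a1 (0.907) and Col6a2 (0.907), and for Pdgfra Medag (0.890), Il1r1 (0.882) and Palld (0.875).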

How the data were processed

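RNA of 32 tumours was sequenced by the authors as stranded, poly(A)-selected paired reads, aligned with STAR to mm10 (GRCm38.p5), and deposited as raw counts per gene and as TPM. Per the submitters' processing notes FastQC 0.11.5 was used. The methods mention ComBat where applicable without naming the tables, and counting is not stated to use strand. TPM removes gene length and depth, so it compares genes, while tests used counts.

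Gene names and coordinates came from GENCODE M21, which named 50376 of 50600 identifiers. Counts were tested with edgeR 4.0.16 in R 4.3.3 (quasi-likelihood, robust, TMM, genes filtered by group, 1 fit of all 32 tumours), with Benjamini-Hochberg adjustment, and the SE is the log2 fold change divided by the square root of F. Alternatives were DESeq2 1.42.0, limma 3.58.1 (voom), RLE size factors, no filter, other sets of tumours, a replicate block and marker scores as covariates. Scripts were tested on simulated data. Log2 CPM used a prior count of 1, and log2(TPM + 1) a pseudocount of 1. Marker scores are mean log2 CPM, and 81 of 82 markers were matched. Totals were 24036333 to 63923086 counts per tumour.

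Named genes were the 10 genes, Cdh1, direct partners, up to 5 partners or context genes a comparison with the smallest p, and for each of the 10 genes the 3 tested genes of highest rho. The genes and lists were chosen with earlier results of these data known. The highest correlation of log2 CPM between 2 tumours was 0.990, and none was a duplicate.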

Additional observations from a re-analysis of the deposited data

Results flagged for a closer look

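Each of the 10 genes was tested in each group of 8 tumours, 40 groups in all, for a tumour far from the others (Dixon's ratio of gap to range, against its critical value at the usual threshold). Chance flags about 1 in 20 groups, and 2 were found. Gas6 in Ecad male 7 was the lowest of its group, at 4.67 log2 CPM against 7.10 in the next tumour (28.0 against 190.7 TPM, 864 counts), with a ratio of 0.590. Ecad male 7 also had the lowest keratinocyte score of its group, at -3.38. Pdgfra in ΔEcad male 7 was the highest of its group, at 9.28 log2 CPM against 5.26 in the next tumour (194 against 10.8 TPM), with a ratio of 0.564. In that tumour the melanocytic markers summed to 31.8 TPM. The part of these markers in either value was not tested.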

How the results depend on the processing

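Genes called in the 5 comparisons (genotype in females, genotype in males, sex in Ecad, sex in ΔEcad, interaction) numbered 213, 0, 9, 7 and 0. They numbered 1281, 21, 1023, 24 and 1225 with DESeq2 (2, 0, 1, 0 and 3 of the 10 genes), 1, 0, 115, 6 and 0 with voom, 322, 0, 9, 7 and 201 with RLE size factors (1 of the 10 genes in the first and last), 555, 0, 10, 7 and 284 without the filter (likewise), and 1, 0, 11 and 0 in fits of only the tumours compared. With keratinocyte and fibroblast scores as covariates they numbered 1, 1, 7, 7 and 0. Without both ΔEcad male 7 and ΔEcad female 3, a choice made after seeing the data, they numbered 598, 0, 15, 7 and 568 (1 of the 10 genes in the first and last). Leaving out 1 tumour gave 1 to 695, 0, 8 to 21, 7 to 8 and 0 to 848 genes, and 0 to 1 of the 10 genes in the first and last. The highest counts came without ΔEcad female 4 (695), Ecad female 5 (21) and ΔEcad male 3 (848).

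Tumour numbers shared between groups paired nothing that the labels describe. Over 48 same-number pairs the correlation of deviations was -0.55 to 0.425 (median 0.0427), 17 were over 0.1, and 3 tumours correlated best with their own number. With the replicate block, 1, 0, 8, 7 and 0 genes were called and 0 of the 10 genes.

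These log2 fold changes changed sign. None was called by edgeR, and DESeq2 called Pdgfra in the interaction (2.89, adjusted p = 0.0151). That value lay near the 2.90 of edgeR without ΔEcad male 7, as the DESeq2 value in males, -0.94, lay near -0.98. DESeq2 ran with its default handling of outlying counts, whose part in these values was not tested. For genotype in females, Tyro3 was 0.34 with voom, 0.074 with covariates and -0.55 to 0.0024 leaving out 1 tumour. For genotype in males, Axl was -0.12 with voom, -0.94 with covariates, -0.44 without both tumours and -0.44 to 0.66 leaving out 1. Gas6 was 0.14 with covariates and -0.44 to 0.058 leaving out 1. Pdgfra was -0.94 with DESeq2, -0.27 with voom, -0.31 with the block, -1.0 with covariates, -0.98 without both tumours and -0.98 to 1.82 leaving out 1. Pdgfrb was -0.018 with the block, -0.70 with covariates, -0.28 without both and -0.28 to 0.25 leaving out 1. Areg was -1.32 to 0.14 and Ereg -1.05 to 0.35 leaving out 1.

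For sex in Ecad, Gas6 was 0.30 with covariates and Tyro3 -0.25 with voom. For sex in ΔEcad, Axl was 0.00338 with the block, 0.75 with covariates, 0.14 without both and -0.77 to 0.65 leaving out 1, and Areg was -0.018 with covariates. Pdgfra was 1.68 with DESeq2, 0.35 with voom, 0.69 with the block, 1.22 with covariates, 0.80 without both and -1.65 to 1.71 leaving out 1. Leaving out 1 also gave Tyro3 -0.85 to 0.035, Ereg -0.086 to 2.26, Pdgfrb -0.16 to 0.83 and Fgfr1 -0.20 to 0.66. For the interaction, Tyro3 was 0.02 with voom, and leaving out 1 gave Axl -0.30 to 1.13 and Pdgfra -0.47 to 2.90. Among correlations, Axl with the keratinocyte score was -0.16 and Pdgfrb with it -0.13 when centred on group means. Tyro3 with the fibroblast score was 0.025 and Axl with Tyro3 0.069 on log2(TPM + 1). For correlations only ΔEcad male 7, ΔEcad male 2 and ΔEcad female 3 were left out, 1 at a time. Axl with Tyro3 was then -0.13 to 0.00365. The cause was not tested. Areg, Ereg and Nrg1 held 3 counts or fewer in 7, 6 and 6 tumours, which limits their fold changes.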

Other observations

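The following genes were chosen after their values were seen. ΔEcad female 3 had the highest level of several ligands of FGF receptors, with Fgf7 at 209 TPM against 32.4 TPM in the next tumour, Fgf10 at 14.8 against 1.53 TPM and Fgf18 at 13.4 against 4.01 TPM. ΔEcad male 7 had the highest level of Errfi1, an inhibitor of EGFR, at 525 TPM against 154 TPM in the next tumour, and of Lrig1, another negative regulator of ERBB receptors, at 92.3 against 46.2 TPM. The same tumour was highest for Fosl1, an AP-1 subunit, at 162 TPM against 82.8 TPM. ΔEcad female 8, with the highest Nrg1, also had the highest Pros1 at 835 TPM and Mertk at 346 TPM.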
